A study of Danio rerio with 9 samples.

Results

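Zebrafish pou5f3, nanog, sox3, sox19a, sox19b, prdm1a, prdm14, tfap2c and tfap2a are the 9 genes described here, out of 32266 annotated genes with a deposited value. They were taken by gene symbol, and each symbol matched 1 gene. Levels are in FPKM, a fragment count scaled by transcript length and by library size. The filter of the study, 3 or more cells with an FPKM of 1 or higher, was met by 9329 genes, the kept genes, among them 6 of the 9. The other 3 are prdm1a and prdm14, which were listed at 0 in every cell, and tfap2a, which was above 0 in 1 cell.

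The cells were primordial germ cells (PGCs) of transgenic AB zebrafish carrying kop-egfp-nanos3-3ʹUTR, in which green fluorescence marks the germline. Single PGCs were picked by hand at 6 hpf (hours post fertilization), when the shield forms, at 11 hpf, when 3 somites are present, and at 24 hpf, the prim-5 stage, and each gave its own library. Cells are named by stage and number, so that 24_1 is the first cell at 24 hpf. The 3 cells of a stage came from 1 embryo, so that a stage is 1 sample and no difference between stages was tested. All cells carried the transgene, and none of the 9 libraries was labelled as a somatic cell. The labels give gonad as the tissue at every stage, whereas in the methods whole embryos were dissociated at 6 and 11 hpf and only the trunk at 24 hpf, a difference that cannot be told apart from the stage.

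Pou5f3 is a POU-domain factor related to mammalian OCT4, Nanog is a homeodomain factor, and Sox3, Sox19a and Sox19b are HMG-box factors of the SoxB1 group. In the zebrafish blastula Pou5f3, Nanog and Sox19b open chromatin and switch on the zygotic genome, and their mammalian counterparts hold embryonic stem cells in a pluripotent state. Prdm1, Prdm14 and Tfap2c are known from mouse and human, where signals from neighbouring tissue induce PGCs and these factors shut off the somatic program. Zebrafish PGCs are specified instead by inherited germ plasm. In zebrafish embryos prdm1a is known for its role in slow muscle and neural crest, and tfap2a for its role in neural crest and epidermis.

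The germ cell label was checked on 12 germ cell markers, of which between 8 and 11 had an FPKM of at least 10 in each cell. Cell 24_1 had the fewest kept genes at an FPKM of at least 1, with 4774, against 5729 to 7102 in the other cells. The sum of the muscle markers lay between 0 and 12.1 FPKM at 6 hpf, between 0 and 38.2 FPKM at 11 hpf and between 43.8 and 2356 FPKM at 24 hpf, with the highest sum in 24_2 and 520 FPKM in 24_1. Of the 11 muscle markers smyhc1, myod1, myog and tnnt3b were listed at 0 in every cell. FPKM holds no read counts and showed no common step between cells, so the depth behind a value is unknown, and a 0 may also stand for a transcript lost before sequencing. An FPKM is a share of a cell's fragments and says nothing about the amount of RNA in the cell.

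At 6 hpf the members with the highest levels were nanog, pou5f3 and sox3, and at 24 hpf the highest was sox19b. For the pluripotency factors pou5f3 and nanog every cell at 24 hpf was below every cell at 11 hpf, by a wide gap for pou5f3 and a narrow one between 24_3 and 11_3 for nanog. Of the SoxB1 genes sox3 was lower at both later stages than at 6 hpf without overlap between cells, while the cells of sox19b and sox19a overlapped in every comparison, and the counterparts of the mammalian specification factors were low or listed at 0 throughout.

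**Figure D1:**
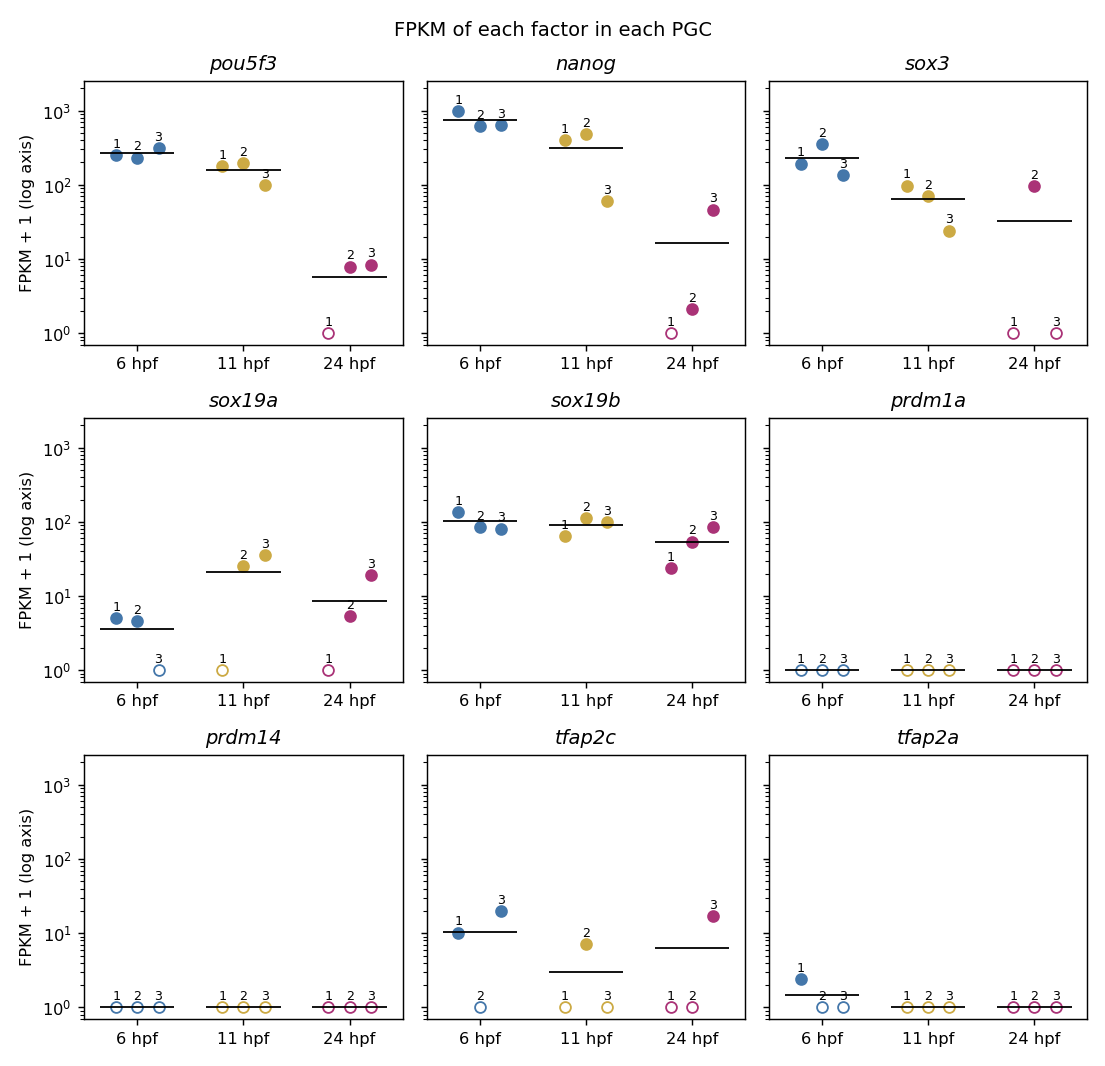
FPKM plus 1 on a log axis for each of the 9 genes in each PGC at 6, 11 and 24 hpf. Points are single cells with their numbers, open points are values listed at 0, and lines are the means of 3 cells of 1 embryo. All cells at 24 hpf lie below all cells at 11 hpf for pou5f3 and nanog, whereas sox19b was above 0 in every cell and prdm1a and prdm14 in none.

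In the 3 PGCs at 6 hpf pou5f3 (ENSDARG00000044774) stood at 249, 231 and 312 FPKM, in those at 11 hpf at 178, 195 and 97.7 FPKM, and in 24_2 and 24_3 at 6.88 and 7.39 FPKM, with 24_1 listed at 0. The stages did not overlap, since the lowest cell at 6 hpf was above the highest at 11 hpf and every cell at 24 hpf was below 11_3. Ordered by level within a cell among the 9329 kept genes, pou5f3 was at rank 322, 381 and 234 at 6 hpf and at rank 588, 460 and 1258 at 11 hpf. In 24_2 and 24_3 it was at rank 5146 and 4981. It thus lay among the upper genes of every cell at 6 and 11 hpf. The kept genes include those listed at 0 in a given cell. In 24_2 and 24_3 only 5990 and 5729 kept genes had an FPKM of at least 1, and pou5f3 was among the lower of these.

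For pou5f3 the mean was 4.76 ± 4.13 FPKM at 24 hpf and 157 ± 52.1 FPKM at 11 hpf (SD, n = 3 cells of 1 embryo). Differences between stages are given as log2 of the mean FPKM plus 1, later minus earlier, beside the spread, the root of the summed squared SDs of log2(FPKM+1) in both stages. This difference was -4.78 with a spread of 1.83 from 11 to 24 hpf. It stayed between -5.15 and -4.28 when single cells were left out, and it was -4.24 with 24_3 as the only cell of its stage, without the cells that had most of the muscle markers. Of all kept genes 2.80% had a difference this low or lower. From 6 to 11 hpf the difference was -0.74 with a spread of 0.58, and it was -0.50 without 11_3.

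Nanog transcripts (ENSDARG00000075113) had FPKM of 973, 618 and 636 in the PGCs at 6 hpf, of 399, 484 and 58.9 at 11 hpf, while 24_2 had 1.13, 24_3 had 45.2 and 24_1 was listed at 0. Cells of different stages did not overlap, but 11_3 was closer to 24_3 than to the other cells at 11 hpf. At rank 34, 76 and 69 of the kept genes nanog was among the most abundant transcripts of the cells at 6 hpf. Its rank was 152 and 95 in 11_1 and 11_2, 1989 in 11_3, 5958 in 24_2 and 2605 in 24_3.

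The mean of nanog was 15.4 ± 25.8 FPKM at 24 hpf and 314 ± 225 FPKM at 11 hpf (SD, n = 3 cells of 1 embryo), a log2 difference of -4.26 with a spread of 3.37. The difference was made smaller by 24_3, without which it was -7.65. Without 24_1 it was -3.70, and with 24_3 as the only cell of its stage it was -2.77. From 6 to 11 hpf it was -1.24, less than the spread of 1.71, and without 11_3 it was -0.75, which is less than 2-fold.

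Cells also differed in the balance of nanog and pou5f3, which does not depend on the scaling of a cell. The FPKM of nanog was 3.91, 2.68 and 2.04 times that of pou5f3 in the cells at 6 hpf and 2.24 and 2.48 times in 11_1 and 11_2. In 11_3 the ratio was 0.603, the only one below 1 at these stages. At 24 hpf it was 0.164 in 24_2 and 6.12 in 24_3, cells with a similar level of pou5f3. Of the 2574 genes with an FPKM between 25 and 100 in 24_3, as nanog had, 41.0% were listed at 0 in 24_1 and 28.6% in 24_2.

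Sox3 (ENSDARG00000053569), a SoxB1 factor of the early embryo and later of the nervous system, was at 192, 354 and 133 FPKM in the cells at 6 hpf and at 96.4, 69.1 and 23.1 FPKM at 11 hpf. Of the cells at 24 hpf only 24_2 had a value above 0, 95.2 FPKM. All cells at 11 hpf were below all cells at 6 hpf, while 24_2 was close to the highest cell at 11 hpf. The mean was 62.8 ± 37.1 FPKM at 11 hpf and 226 ± 114 FPKM at 6 hpf (SD, n = 3 cells of 1 embryo), a log2 difference of -1.83 with a spread of 1.27.

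From 11 to 24 hpf the log2 difference of sox3 was -0.96 with a spread of 3.95, and it was -6.00 without 24_2. The size of this difference is decided by 1 cell. From 6 to 24 hpf all cells at 24 hpf were below all cells at 6 hpf, and the difference was -2.80 with a spread of 3.87. Cell 24_2 also had the highest sum of muscle markers, whose part in the sox3 value was not tested. All 8 neural markers, among them elavl3, elavl4, neurog1 and gfap, were listed at 0 in 24_2. The same held in 24_1, in 11_1 and in every cell at 6 hpf, and 7 of the 8 were at 0 in 24_3. In 11_2, however, pax6a was at 43.9 FPKM and neurog1 at 22.4 FPKM, and in 11_3 elavl3 was at 2.66 FPKM. Of the 1770 genes with an FPKM between 50 and 200 in 24_2, 22.6% were listed at 0 in 24_1, 17.5% in 24_3 and 8.93% in both, as sox3 was.

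Sox19b (ENSDARG00000040266), a SoxB1 gene with a large maternal supply in zebrafish, was above 0 in all 9 cells, alone among the members. The PGCs at 6 hpf had 136, 85.1 and 80.0 FPKM, those at 11 hpf had 63.2, 111 and 97.4 FPKM, and those at 24 hpf had 22.9, 53.2 and 83.6 FPKM. Cells of every pair of stages overlapped, and 24_1 was the lowest. In the cells at 24 hpf sox19b was at rank 3323, 2160 and 1581 of the kept genes, against ranks of 1009 to 1870 at 11 hpf, so that 24_3 alone lay within that range. The log2 difference was -0.76 with a spread of 1.02 from 11 to 24 hpf, and -0.15 with a spread of 0.59 from 6 to 11 hpf. The sign of the difference between 11 and 6 hpf was positive without 6_1, without 11_1 or when stage medians were used.

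Sox19a (ENSDARG00000010770), the paralogue of sox19b that is switched on from the zygotic genome, was low. It had FPKM of 4.10 and 3.56 in 6_1 and 6_2, 24.5 and 34.9 in 11_2 and 11_3 and 4.33 and 18.1 in 24_2 and 24_3. In 6_3, 11_1 and 24_1 its listed value was 0. Each stage thus had a cell without a value, and the stages overlapped. Its log2 difference from 6 to 11 hpf was 2.55, less than the spread of 3.14. Of the 1889 genes with an FPKM between 20 and 50 in 11_3, 32.0% were listed at 0 in 11_1. The highest value of sox19a came from 11_3, the cell with the lowest pou5f3, nanog and sox3 of its stage. Sox2, another SoxB1 gene, and its relatives sox1a and sox1b were listed at 0 in every cell.

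**Figure D2:**
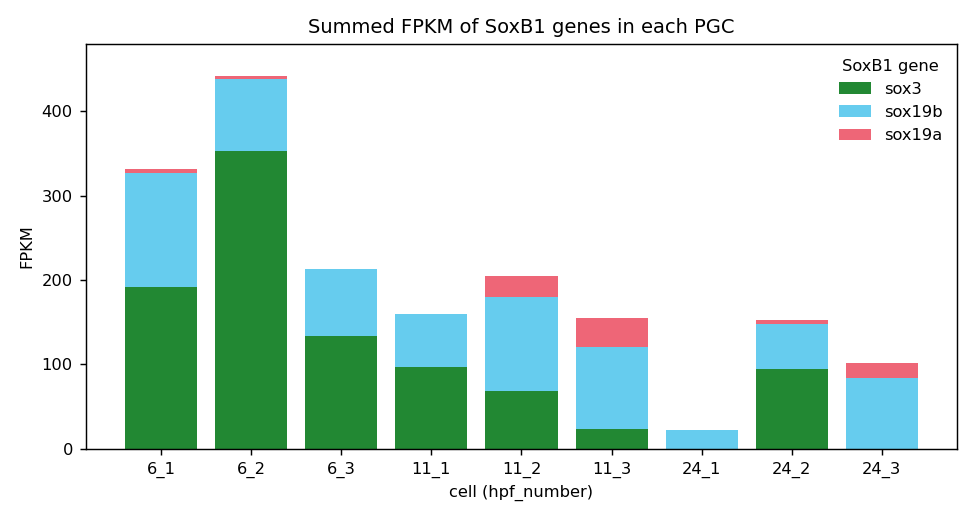
Summed FPKM of sox3, sox19b and sox19a in each PGC, as stacked bars. The sum lies between 213 and 442 at 6 hpf, between 155 and 205 at 11 hpf and between 22.9 and 153 at 24 hpf, and sox3 makes up the largest part in 11_1, in 24_2 and in each of the cells at 6 hpf.

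The sum over sox3, sox19a and sox19b was 329 ± 114 FPKM at 6 hpf, 173 ± 27.4 FPKM at 11 hpf and 92.4 ± 65.4 FPKM at 24 hpf (SD, n = 3 cells of 1 embryo). Sox3 made up 57.8%, 80.0% and 62.5% of this sum in the PGCs at 6 hpf, and its part in those at 11 hpf was 60.4%, 33.7% and 14.8%. In 24_2 its share was 62.3%. Sox19b made up 41.0%, 19.2% and 37.5% in the PGCs at 6 hpf, then 39.6%, 54.3% and 62.7% in those at 11 hpf and 100%, 34.8% and 82.2% in those at 24 hpf. The leading SoxB1 gene was sox3 in every cell at 6 hpf and sox19b in 11_2, 11_3, 24_1 and 24_3.

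The ratio of sox19b to pou5f3 separated 24 hpf from the earlier stages. It ranged from 0.257 to 0.546 at 6 hpf and from 0.354 to 0.997 at 11 hpf, and it was 7.73 in 24_2 and 11.3 in 24_3. It could not be formed for 24_1, where pou5f3 was listed at 0. Sox19b was below pou5f3 in all 6 earlier cells and above it in all 3 cells at 24 hpf.

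Of the counterparts of the mammalian specification factors, tfap2c (ENSDARG00000040606), a member of the AP-2 family, was the only one to pass the filter. Its FPKM was 9.20 in 6_1, 18.8 in 6_3, 6.13 in 11_2 and 15.9 in 24_3, and 0 in the list for the remaining 5 cells. Values above 0 thus came from every stage and from a minority of the cells, and no course over time can be read from them. The log2 difference from 11 to 24 hpf, 1.05 with a spread of 2.87, became -1.61 without 24_3. Tfap2a (ENSDARG00000059279) was at 1.39 FPKM in 6_1 and listed at 0 elsewhere. Prdm1a (ENSDARG00000002445), the counterpart of Blimp1, and prdm14 (ENSDARG00000045371) had a listed value of 0 in each of the 9 cells.

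At 6 hpf the order by mean was nanog, pou5f3, sox3, sox19b, tfap2c, sox19a and tfap2a. Nanog stood above pou5f3, and sox19b above tfap2c, without overlap between cells, whereas the ranges of pou5f3 and sox3 and those of sox3 and sox19b overlapped. Compared within each cell, sox3 was above sox19b in all 3, and pou5f3 above sox3 in 2. At 11 hpf the order was nanog, pou5f3, sox19b, sox3, sox19a and tfap2c, and all neighbours in it overlapped. Within cells pou5f3 was above sox19b in all 3, though in 11_3 they were nearly equal, at 97.7 and 97.4 FPKM. Each other pair of neighbours kept this order in 2. By 24 hpf sox19b came first, at 53.2 ± 30.3 FPKM, before sox3 at 31.7 ± 55.0 FPKM and nanog at 15.4 ± 25.8 FPKM (SD, n = 3 cells of 1 embryo), and again all neighbours overlapped.

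**Figure D3:**
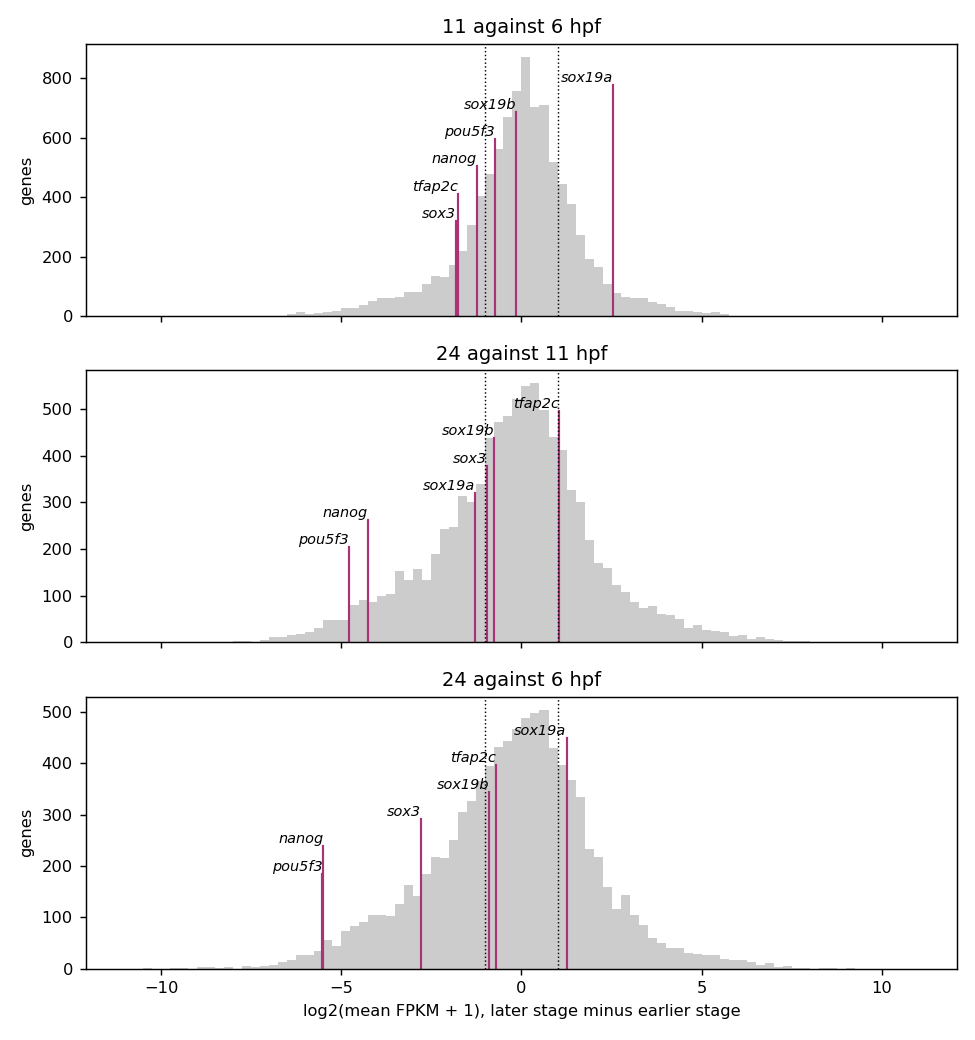
Log2 differences of mean FPKM plus 1, later stage minus earlier stage, for the 9329 kept genes (grey histograms, 1 panel for each pair of stages) and for the 6 kept members (labelled lines). Dotted lines mark 2-fold, and the heights of the member lines carry no value. From 11 to 24 hpf pou5f3 at -4.78 and nanog at -4.26 lie in the lower tail, while sox19b at -0.76 lies within the bulk of genes.

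Past 2-fold in each comparison were 4 of the 6 kept members, 3 lower and 1 higher. From 6 to 11 hpf nanog, sox3 and tfap2c were lower, where 21.8% of all kept genes were, and sox19a was higher, where 21.7% were. With the added condition that cells did not overlap there remained nanog and sox3 among the lower, against 6.19% of all kept genes, and none among the higher, against 4.89%. From 11 to 24 hpf pou5f3, nanog and sox19a were lower and tfap2c was higher, against 31.5% and 26.1% of all kept genes. Without overlap there remained pou5f3 and nanog among the lower, against 9.79%, and none among the higher, against 7.89%. From 6 to 24 hpf pou5f3, nanog and sox3 were lower and did not overlap, against 33.3% of all kept genes past 2-fold and 14.2% without overlap, and sox19a was higher but overlapped, where 27.5% were higher and 9.83% higher without overlap. The counts of members were not tested against these shares. Tfap2a, prdm1a and prdm14 did not pass the filter on low values and are not in these counts, and a gene that passed it through 1 stage alone had to differ between stages.

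The germ cell markers were also lower at 24 hpf than at 11 hpf, by less than pou5f3 and nanog, a contrast that was not tested. Over the 11 kept markers the log2 difference had a median of -1.80, against -4.78 for pou5f3, -4.26 for nanog and a median of -0.08 over all kept genes. Pou5f3 and nanog were the members with the largest falls. The other kept members fell less than the marker median or rose, with -1.30 for sox19a, -0.96 for sox3, -0.76 for sox19b and 1.05 for tfap2c. Past 2-fold lower were 9 of the 11 and higher 1, against 31.5% and 26.1% of all kept genes. Without overlap 8 were lower and none higher, against 9.79% and 7.89%. At 24 hpf the germ cell markers summed to between 11982 and 13961 FPKM, against 20657 to 44585 FPKM at 11 hpf. Most of each sum at 24 hpf came from nanos3 alone, at 8560, 7573 and 10351 FPKM in 24_1, 24_2 and 24_3. The sums thus say little about the other markers. The transgene carries the nanos3 3ʹUTR, and its part in these sums was not tested.

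Further factors of the pluripotency network were followed through a list of 31 symbols, chosen with earlier results of these data known. The list matched 32 genes, of which 19 were kept and 8 were listed at 0 in every cell, among them sox2, klf4, foxd3 and tfcp2l1. From 11 to 24 hpf 11 of the 19 were past 2-fold lower and 2 higher, against 31.5% and 26.1% of all kept genes, and the median of the 19 log2 differences was -1.74, against -0.08 over all kept genes. With the added condition that cells did not overlap 4 were lower and none higher, against 9.79% and 7.89% of all kept genes. From 6 to 11 hpf 5 were lower and 4 higher, against 21.8% and 21.7%, with a median of -0.10, against 0.03 over all kept genes. Without overlap 2 were lower and 2 higher, against 6.19% and 4.89%. From 6 to 24 hpf 12 were lower and none higher, against 33.3% and 27.5%, with a median of -1.63, against -0.10 over all kept genes. Lower without overlap were 9, against 14.2% of all kept genes. Klf17, among the lower genes from 6 hpf to either later stage, passed the filter through its cells at 6 hpf alone. Its direction was thus fixed by the filter.

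Foxh1, which carries Nodal signals to the genome, had 15.6, 50.3 and 88.3 FPKM in the cells at 6 hpf, 122, 131 and 165 FPKM in those at 11 hpf and 20.5, 30.2 and 25.1 FPKM in those at 24 hpf. The cells at 11 hpf were above all others, and the log2 difference between 24 and 11 hpf was -2.42 with a spread of 0.35. Sall4, a zinc-finger partner of OCT4 in mammals, was at 81.0, 52.6 and 76.9 FPKM at 6 hpf and at 105 and 98.2 FPKM in 11_1 and 11_2. Its value was 0.108 FPKM in 24_2 and 0 in 11_3, 24_1 and 24_3. Cell 11_3, the lowest in nanog of its stage, was thus also the only one of its stage with sall4 listed at 0. Tdgf1, the Nodal co-receptor known as one-eyed pinhead, had 186, 87.5 and 81.9 FPKM at 6 hpf and 22.9 and 76.9 FPKM in 11_1 and 11_2. Among the remaining cells only 24_3 had a value above 0, at 1.3 FPKM.

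Klf17, a Krüppel-like factor, had FPKM of 37.8, 30.0 and 41.2 at 6 hpf and was listed at 0 in all cells at 11 and 24 hpf. Klf2b was at 256, 272 and 281 FPKM at 6 hpf, at 199, 175 and 64.2 FPKM at 11 hpf and at 18.3, 53.0 and 172 FPKM at 24 hpf, so that 24_3 lay within the range at 11 hpf. Eomesa, a T-box factor of maternal supply, reached 32.6 FPKM in 6_2 and had no value above 0 at 24 hpf. Smad2, an effector of Nodal, averaged 5.83 ± 3.55 FPKM at 24 hpf and 28.6 ± 11.0 FPKM at 11 hpf (SD, n = 3 cells of 1 embryo). Smad2 showed no overlap between these stages, with a log2 difference of -2.12 and a spread of 0.86.

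Other partners differed less or varied more between cells. Lin28a, which blocks let-7 maturation, averaged 54.1 ± 5.67 FPKM at 6 hpf, 50.3 ± 27.3 FPKM at 11 hpf and 25.5 ± 14.6 FPKM at 24 hpf (SD, n = 3 cells of 1 embryo). Its log2 difference of -0.95 between 24 and 11 hpf was less than the spread. Mych, a Myc gene, was at 0.327, 28.8 and 163 FPKM at 24 hpf, against 325, 286 and 239 FPKM at 11 hpf. Tcf7l1a, a repressor of Wnt targets, was at 33.5 ± 3.50 FPKM at 6 hpf and varied between 0.191 and 87.9 FPKM at 24 hpf. Zic2b had 36.8 FPKM in 24_1 alone among the cells at 24 hpf, and zic2a 20.1 FPKM in 24_2 alone. From 6 to 24 hpf zic2b was lower without overlap, with a log2 difference of -3.00 and a spread of 3.13. Zic2a was higher without overlap from 6 to 11 hpf, with a log2 difference of 2.10 and a spread of 2.39.

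**Figure D4:**
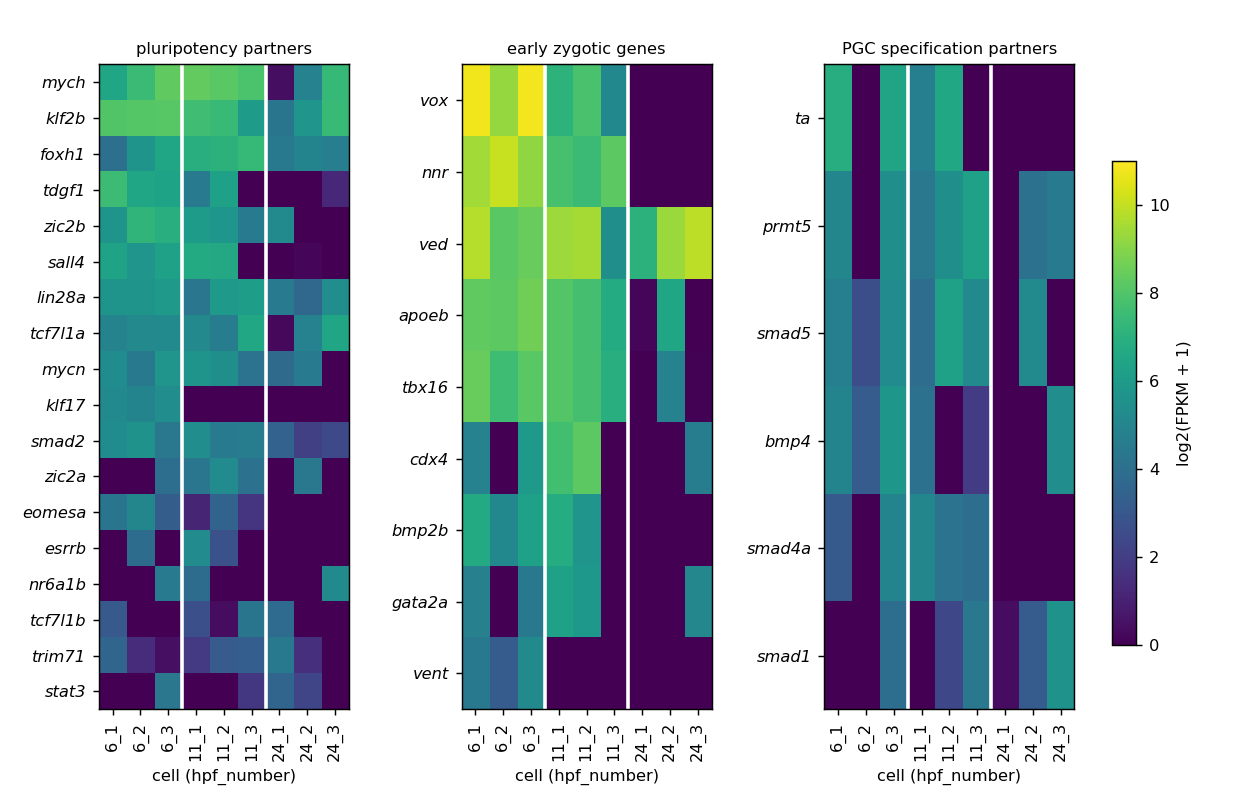
Log2 of FPKM plus 1 in each PGC for kept genes of the lists of pluripotency partners (18 of 19 drawn), early zygotic genes and PGC specification partners, with white lines between 6, 11 and 24 hpf. Dark squares are low and yellow ones high. Vox and nnr have no value above 0 in any cell at 24 hpf, whereas ved stays between 133 and 945 FPKM there.

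Early zygotic genes, several of them known in zebrafish as targets of Pou5f3, Nanog or SoxB1, were followed through 16 symbols. Of the 15 that matched, 9 were kept. From 11 to 24 hpf 7 of the 9 were past 2-fold lower and none higher, against 31.5% and 26.1% of all kept genes, and the median of the 9 log2 differences was -4.24, against -0.08. Only 4 of the 7 did not overlap, where 9.79% of all kept genes were lower without overlap. From 6 to 11 hpf 3 were lower and 2 higher, against 21.8% and 21.7%, with a median of -0.46, against 0.03. Without overlap 3 were lower and none higher, against 6.19% and 4.89%. Vent, 1 of the 3, passed the filter through its cells at 6 hpf alone, so that it had to be lower later. Her3, mxtx2 and hesx1 were listed at 0 in every cell.

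Vox, a homeobox repressor of dorsal genes, was at 1712, 613 and 1808 FPKM at 6 hpf and at 136, 228 and 34.0 FPKM at 11 hpf, while no cell at 24 hpf had a value above 0. Vent, of the same family, was at 20.8, 8.09 and 37.9 FPKM at 6 hpf and listed at 0 at both later stages. Ved, the third of these repressors, was instead at 133, 653 and 945 FPKM at 24 hpf, against 665, 723 and 43.0 FPKM at 11 hpf, with a log2 difference of 0.27 and a spread of 2.74. The members of this family therefore did not share a course.

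Nnr was at 708, 1079 and 569 FPKM at 6 hpf, at 220, 178 and 299 FPKM at 11 hpf and at 0 in the list for every cell at 24 hpf. Tbx16, a T-box factor of mesoderm, was listed at 0 in 24_1 and at 28.2 and 0.0466 FPKM in 24_2 and 24_3, against 264, 216 and 119 FPKM at 11 hpf. Apoeb, which encodes an apolipoprotein, was at 89.1 FPKM in 24_2, at 0.140 FPKM in 24_1 and listed at 0 in 24_3, against 263, 213 and 107 FPKM at 11 hpf. Bmp2b, a ventral signal, was listed at 0 in 11_3 and at 24 hpf and was at 111 and 53.0 FPKM in 11_1 and 11_2. Cdx4 and gata2a were highest in 11_1 and 11_2, with 201 and 302 FPKM for cdx4 and 76.8 and 56.5 FPKM for gata2a, and both were listed at 0 in 11_3.

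Partners and relatives of the mammalian specification factors were followed through 18 symbols. Of the 16 that matched, 6 were kept, and sox17, prdm1b, tfap2e, kitb and tet1 were listed at 0 in every cell. Sox17 is needed for human PGCs. From 11 to 24 hpf 4 of the 6 were past 2-fold lower and 1 higher, against 31.5% and 26.1% of all kept genes, and the median of the 6 log2 differences was -1.75, against -0.08. Of the 4 only smad4a did not overlap, where 9.79% of all kept genes were lower without overlap. Smad4a, the common partner in BMP signalling, had no value above 0 at 24 hpf, against 32.2, 17.0 and 14.7 FPKM at 11 hpf. From 6 to 11 hpf bmp4 was lower and none was higher, against 21.8% and 21.7%, with a median of 0.67, against 0.03, and each of the 6 differences was within its spread.

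The gene ta (also called tbxta), the zebrafish Brachyury, was at 114 and 84.4 FPKM in 6_1 and 6_3 and at 26.2 and 96.4 FPKM in 11_1 and 11_2. It had no value above 0 in 6_2, 11_3 or any cell at 24 hpf. Prmt5, an arginine methyltransferase that works with Blimp1 in mouse PGCs, averaged 13.2 ± 11.8 FPKM at 24 hpf and 47.2 ± 29.2 FPKM at 11 hpf (SD, n = 3 cells of 1 embryo). Bmp4, smad1 and smad5 were each above 0 in cells of every stage. Cbfa2t2, which binds Prdm14 in mouse, reached 23.2 FPKM in 24_2, where prdm14 itself was listed at 0. Tfap2d was at 19.1 FPKM in 11_2 alone.

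Prdm1a and tfap2a are also genes of somatic tissues, so their values were set beside somatic markers. Of the 9 neural crest markers crestin, sox10, foxd3, snai1b, ednrba and mitfa were listed at 0 in every cell. Snai2 was above 0 in cells of every stage and highest in 6_3, at 60.9 FPKM, and in 11_2, at 46.6 FPKM. Sox9b was at 10.9 FPKM in 6_3 alone, and twist1a at 6.37 FPKM in 24_1 alone. Smyhc1, the slow muscle myosin, was listed at 0 in every cell, also in 24_1 and 24_2, where other muscle markers were present. Of 10 epidermis markers 7 reached an FPKM of 10 in 11_1, and tfap2a and tfap2c were listed at 0 there. In 6_1, the only cell with tfap2a above 0, 2 of the 10 did. Epcam, an adhesion molecule of epithelia that is 1 of the 10, was at 60.6 FPKM or more in every cell.

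Likeness to a member was measured as Pearson's r of log2(FPKM+1) over the 9 cells across all kept genes, as a description only, since the 9 cells come from 3 embryos and cells of 1 stage share an embryo. The genes named were picked for the highest r, so values shared with the member follow from the choice. The 3 genes most like pou5f3 were hmgb3b (r = 0.99), ccnb1 (r = 0.98) and tpx2 (r = 0.98). For nanog they were adgre10 (r = 0.99), ccnd1 (r = 0.98) and brd2a (r = 0.98), which share with it the low value in 11_3. As an example, ccnd1 was at 214, 190 and 12.1 FPKM at 11 hpf. For sox3 they were si:ch211-226h8.4 (r = 0.98), pdia3 (r = 0.97) and glyr1 (r = 0.97), which share with it the high value in 24_2. Pdia3 had 70.5 FPKM in 24_2 and no value above 0 in 24_1 or 24_3. For sox19b they were phf20l1 (r = 0.96), gins3 (r = 0.95) and hapln4 (r = 0.94), for sox19a AREL1 (r = 0.96), BX005448.1 (r = 0.95) and enc3 (r = 0.93), and for tfap2c rbm25a (r = 0.99), ubald2 (r = 0.98) and mpg (r = 0.97).

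Among the members themselves the coefficient was 0.94 between pou5f3 and nanog, 0.81 between pou5f3 and sox3 and 0.80 between pou5f3 and sox19b over the 9 cells. It was 0.64 between nanog and sox3, 0.81 between nanog and sox19b and 0.54 between sox3 and sox19b. For sox19a it was 0.10 with pou5f3, 0.08 with nanog, -0.10 with sox3 and 0.57 with sox19b. For tfap2c it was 0.27 with pou5f3, 0.45 with nanog, -0.06 with sox3, 0.50 with sox19b and 0.14 with sox19a.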

How the data were processed

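The transcripts of single PGCs were amplified by a variant of Smart-seq2 and sequenced as 9 libraries. Per the labels and the methods, the tools of the authors were Trimmomatic for trimming, HISAT2 2.0.5 for alignment to danRer10 and StringTie 1.3.3 for the level of each Ensembl gene. They deposited FPKM per gene and cell, without filtering, coordinates or read counts. The number of reads behind a value is therefore unknown, and no confidence interval can be given.

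Python 3.11.15 with numpy 2.4.6 and pandas 2.3.3 was used throughout, with matplotlib 3.10.9 for the plots. Kept genes had 3 or more cells with an FPKM of 1 or higher, and levels were compared as log2 of FPKM plus a pseudocount of 1. The functions were tested on simulated data. A stage is 1 embryo, so no p-value was computed. A gene counted as lower or higher past 2-fold. Gene names were used as deposited, and the identifiers of all 9 members were found in a table of gene names. No genome or sequence table was used here.

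The members and gene lists were chosen with earlier results of these data known. Named are all members, from each of 3 lists the 8 genes of highest stage mean and those past 2-fold without overlap, and the 3 genes most like each kept member. A gene of the pluripotency partners that meets this rule is not reported here, though it is in the counts of its list. Alternatives were pseudocounts of 0.1 and 10, no filter, a minimum FPKM of 5, scaling to the same total (TPM), median-of-ratios factors, mean logs, stage medians, a 4-fold limit and leaving out each cell. Leaving out 24_1 and 24_2 together was added after seeing the data.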

Additional observations from a re-analysis of the deposited data

How the results depend on the processing

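No paired analysis was possible because no result comes from a test, and the numbers of the cells only name them. The differences of pou5f3, nanog and sox3 kept their sign in all 3 comparisons under every alternative run. With single cells left out, the number of members past 2-fold lower ranged from 2 to 3 for 11 against 6 hpf, from 2 to 5 for 24 against 11 hpf (5 without 24_3) and from 3 to 5 for 24 against 6 hpf (5 without 6_2 or 24_3). The number past 2-fold higher was 1 throughout for 11 against 6 hpf and ranged from 0 to 1 for the other comparisons, with 0 without 11_1, 11_3 or 24_3 for 24 against 11 hpf and without 6_3 or 24_3 for 24 against 6 hpf. At 4-fold 0 members were lower for 11 against 6 hpf, and with mean logs 5 were lower for 24 against 6 hpf. For 24 against 11 hpf and for 24 against 6 hpf the number higher was 0 with a pseudocount of 10, median-of-ratios factors, mean logs, stage medians or a 4-fold limit. The difference of tfap2c for 24 against 11 hpf was 1.05 with all cells and, with single cells left out, ranged from -1.61 without 24_3 to 2.65 without 11_2. That of sox19a for 24 against 6 hpf was positive with all cells, ranged from -0.17 without 24_3 to 1.78 without 24_1 when single cells were left out, and was 2.42 without both 24_1 and 24_2. The sign also turned for sox19b for 11 against 6 hpf with stage medians, without 6_1 or without 11_1, and for tfap2c for 24 against 6 hpf without 6_3 or without both 24_1 and 24_2. The cause of these changes was not tested. Median-of-ratios factors moved the median difference of all genes by -0.22 for 24 against 6 hpf. Of 264 values of the 18 member differences under all alternatives, 8 moved by more than the spread, all of them of sox3 or nanog in the comparisons with 24 hpf.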

Other observations

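Relatives of the members outside the lists were looked at by the start of their symbols, after the values had been seen. Of 24 other Sox genes 4 were kept and 11 were listed at 0 in every cell, where 9329 of all 32266 genes were kept. The most abundant was sox11b, a SoxC gene, which was above 0 in all 9 cells, at 103, 52.4 and 89.7 FPKM at 6 hpf, 182, 137 and 51.4 FPKM at 11 hpf and 11.2, 44.6 and 33.3 FPKM at 24 hpf. All its cells at 24 hpf were below all cells at 11 hpf, and the log2 difference was -2.02 with a spread of 1.38. Sox21a, a SoxB2 gene, was at 40.7 and 27.7 FPKM in 24_1 and 24_3, 37.1 FPKM in 6_2 and 26.8 FPKM in 11_3. Its listed value was 0 in 6_1, 6_3, 11_1, 11_2 and 24_2. The share of all 32266 genes at 0 in every cell was not determined, so the counts of such genes given here have no background.

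Of 13 other Prdm genes 4 were kept, against 9329 of all 32266 genes, and prdm1a and prdm14 were not. These counts and those below were not tested against that share. Prdm9, known in mammals as the factor that places recombination sites in meiosis, had FPKM of 12.4 and 40.3 in 6_1 and 6_2 and 37.6, 22.1 and 8.42 at 11 hpf. At 24 hpf it was at 20.8 FPKM in 24_1 and listed at 0 in the other cells. Of 15 other Pou genes 2 were kept, pou2f1b and pou6f1, neither above 14.3 FPKM in any cell, and 11 were listed at 0 throughout. None of the 3 other AP-2 genes was kept.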
